A study of Mus musculus with 4 samples.

Results

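Semaphorins, plexins and neuropilins were followed through every cell class of the mouse kidney in nuclei from losartan-treated and untreated animals. Every gene symbol in the deposited tables that names a numbered semaphorin, a plexin A, B, C or D, or neuropilin 1 or 2 was taken, which gave 31 genes of 27998: 20 semaphorins, 9 plexins and 2 neuropilins. The treated group was kidney from C57BL/6 mice at postnatal week 22 given losartan, a blocker of the type 1 angiotensin II receptor (2 libraries), and its control was kidney from untreated C57BL/6 mice of the same age (2 libraries). The labels used here give no dose, duration, sex or disease model, and do not say whether the libraries came from separate animals, so the p-values below measure only the spread between libraries, which may be technical. Kidneys were frozen, nuclei were isolated, and their RNA was counted as unique molecular identifiers (UMIs, 1 per captured RNA molecule) on the 10x Genomics droplet platform.

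Semaphorins are ligands that steer growing axons, vessels and epithelia by making the cytoskeleton of the receiving cell collapse or turn. Class 3 semaphorins are secreted and mostly act through a neuropilin that binds the ligand and a plexin that carries the signal inside, whereas classes 4, 5 and 6 span the membrane and class 7 is held by a lipid anchor, and these mostly bind plexins directly. Neuropilins also bind vascular endothelial growth factors, and in the kidney the family is known from glomerular and vascular development.

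After filtering, 36003 of 39654 barcodes remained, between 8579 and 9371 per library, from deposited totals of 42290414 to 59078762 UMIs per library. Clusters of nuclei were named from fixed marker genes, without using the 31 genes to build them, and each name below means nuclei that resemble that cell type. Of 17 named classes, 12 had at least 50 nuclei in every library and were tested. The summed markers of each tested class were present in all 4 libraries, and no marker of the class was at 0 over the 4 libraries together. Cell composition differed between the groups: proximal tubule made up 46.3% and 37.2% of losartan nuclei and 33.8% and 23.5% of untreated nuclei, and endothelium 3.33% and 5.83% of losartan nuclei and 8.02% and 9.91% of untreated nuclei. The first losartan library stood apart, since it held 1292 of the 1327 nuclei of one proximal tubule cluster. Any pair of libraries shared only 21 to 29 barcodes. Markers of the proximal tubule also moved with the group inside other cells: their summed level was higher with losartan, without overlap, in all 11 other tested classes, and that of the injury markers was lower without overlap in 10 of the 11, principal and connecting tubule cells aside. Their part in the results below was not tested. Some values are given without the nuclei richest in proximal tubule markers, which leaves out the richest 10% of a class in each library. The markers were not measured again in the remaining nuclei, so such values do not test that part.

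The sequences before the starts of both secreted podocyte ligands are shown first because the results set these genes side by side: Sema3g, which fell with losartan in podocytes, and Sema3e, whose change within podocytes passed no test. Each is the stretch from 250 to 14 bases before the RefSeq transcript start on GRCm38.p6, 5′ to 3′, with every CANNTG (the E-box, read by basic helix-loop-helix factors, searched on both strands) in capitals. The 13 bases nearest the start are left out because the GENCODE gene model of Sema3g already begins there, and the stretch before the RefSeq start of Sema3c is not shown because it lies inside the GENCODE gene. Sema3e was added after its values were seen.
Sema3g, chr14:31217623-31217859, plus strand: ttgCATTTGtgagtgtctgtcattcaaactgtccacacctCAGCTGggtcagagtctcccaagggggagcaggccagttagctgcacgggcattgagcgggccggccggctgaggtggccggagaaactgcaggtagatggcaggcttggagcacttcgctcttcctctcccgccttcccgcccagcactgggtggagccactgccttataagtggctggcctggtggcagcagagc
Sema3e, chr5:14025026-14025262, plus strand: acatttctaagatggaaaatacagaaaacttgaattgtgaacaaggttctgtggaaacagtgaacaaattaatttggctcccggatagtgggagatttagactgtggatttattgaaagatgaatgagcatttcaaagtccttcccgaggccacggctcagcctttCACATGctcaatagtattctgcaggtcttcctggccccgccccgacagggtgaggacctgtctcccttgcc

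The sequences differed in base composition: G and C made up 61.6% of the Sema3g sequence and 46.0% of the Sema3e sequence, against a median of 51.9% over the same stretch of 32851 mouse promoters. Sema3g held 2 E-boxes and Sema3e held 1, and 64.4% of all promoters held at least 1. The homeodomain motif TAATTA, searched on both strands, was in neither and in 4.75% of all promoters. RefSeq promoters were matched by symbol for 26 of the 31 genes.

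Levels below are in CPM, the UMIs of a gene per 1000000 UMIs of a class, summed over its nuclei in each library. They compare one gene between classes, not genes with each other, because long and short genes are captured differently from nuclear RNA. Of the 31 genes, 22 averaged at least 50 CPM over the 4 libraries in some tested class. The endothelium was the highest tested class for 11 of the 31 genes, fibroblasts for 4, and podocytes, macrophages with dendritic cells, and the proximal tubule for 3 each. For 16 of the 31, the highest class lay above the next class in every library. These levels are a description with no test.

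**Figure D1:**
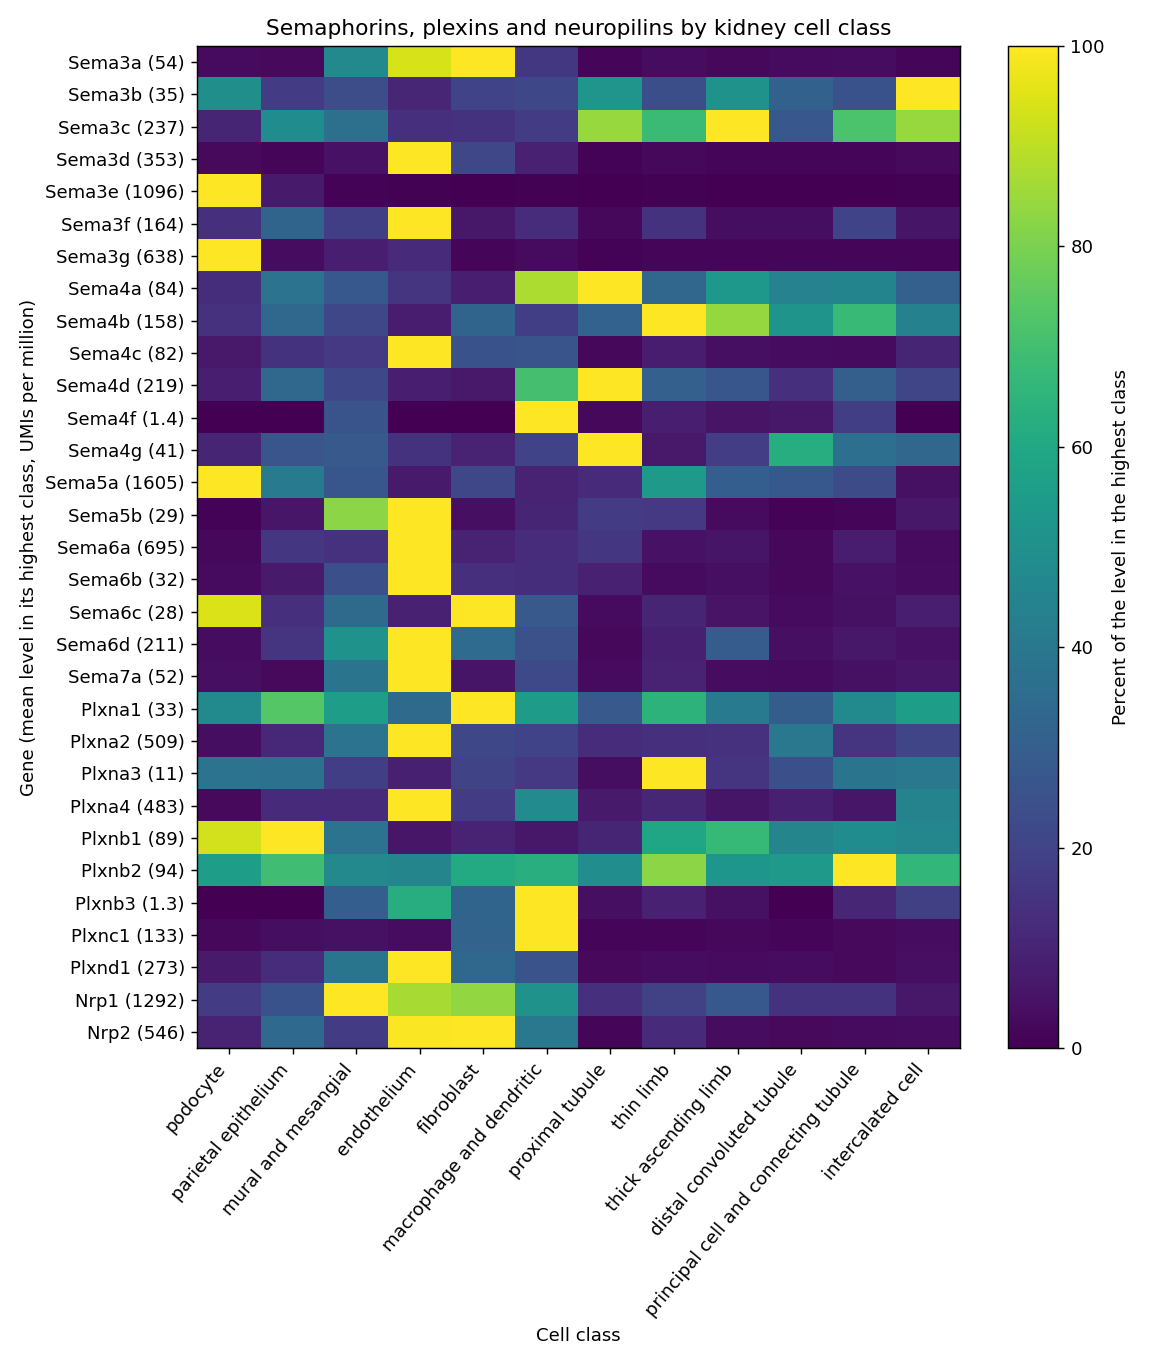
Level of each of the 31 genes (rows, ordered by ligand and receptor class, with the mean CPM over 4 libraries in the highest class in brackets) in each of the 12 tested cell classes (columns), as a percent of that gene's level in its highest class. Sema3e and Sema3g are bright in podocytes, and a block of semaphorins and plexins is brightest in the endothelium.

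Podocytes, the filter cells of the glomerulus, held the highest levels of a pair of secreted ligands. Sema3e, which signals through plexin D1 without needing a neuropilin, had 1066 and 1050 CPM in losartan podocytes and 1158 and 1110 CPM in untreated podocytes. Its mean of 1096 ± 48.5 CPM (SD, n = 4) was 13.7 times that of the next class, the parietal epithelium of Bowman's capsule. Sema3g, a ligand of neuropilin 2 known from vessels and podocytes, averaged 638 ± 205 CPM in podocytes (SD, n = 4) and 77.3 ± 7.22 CPM in endothelium. All libraries of podocytes lay above all libraries of the next class for both ligands. Podocyte nuclei supplied 24.4% of all Sema3g UMIs in losartan kidneys and 50.6% in untreated kidneys, and 76.6% and 80.3% of all Sema3e UMIs in losartan and untreated kidneys.

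Sema5a, a membrane semaphorin with thrombospondin repeats, was also highest in podocytes among the tested classes, at 1614 and 1474 CPM with losartan and 1693 and 1639 CPM untreated. Thin limb followed at 860 ± 425 CPM (SD, n = 4). Within thin limb the value depended on the cluster: it averaged 1180 CPM in the cluster led by Fst and Slc14a2 and 98.0 CPM in the cluster led by Kcnh7 and Nrip3, which held only 4 nuclei in the first untreated library. Injured proximal tubule cells, named from Havcr1, Vcam1 and other injury markers and not tested because the first losartan library held 14 of them, had Sema5a at 870 and 1704 CPM with losartan and 2348 and 1949 CPM untreated.

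Endothelium carried both ligands and receptors. Sema3d, a secreted ligand that guides endothelial cells, had 269 and 324 CPM in losartan endothelium and 394 and 424 CPM in untreated endothelium. Sema3f, a neuropilin 2 ligand that repels vessels, had 118 and 155 CPM with losartan and 192 and 188 CPM untreated. Both had all losartan libraries below all untreated libraries, as 9 of the 24 family genes tested in endothelium did; 5 of the 24 lay higher without overlap. Of all genes in endothelium, 34.4% did not overlap between the groups and 19.9% were lower without overlap.

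Several transmembrane semaphorins were highest in the endothelium. Sema6a, a ligand of plexins A2 and A4, had 667 and 630 CPM with losartan and 813 and 671 CPM untreated. Sema6d, a ligand of plexin A1, had 224 and 154 CPM with losartan and 263 and 205 CPM untreated. Sema4c, a ligand of plexin B2, had 43.0 and 67.5 CPM with losartan and 107 and 109 CPM untreated. The lipid-anchored Sema7a, a ligand of plexin C1 and integrins, had 37.6 and 47.2 CPM with losartan and 64.9 and 56.3 CPM untreated. Sema4c, Sema6a and Sema7a had every losartan library below every untreated one, and Sema6d overlapped between the groups.

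Among plexins, Plxna2, Plxna4 and Plxnd1 were highest in the endothelium. Plxna2 had 537 and 540 CPM with losartan and 477 and 482 CPM untreated, with the losartan libraries the higher ones. Plxna4 had 566 and 483 CPM with losartan and 452 and 429 CPM untreated. Plxnd1, the receptor of Sema3e, had 233 and 267 CPM with losartan and 302 and 288 CPM untreated. In the remaining classes Plxnd1 was highest in mural and mesangial cells, at 105 ± 27.1 CPM (SD, n = 4), and it was at 20.4 CPM in podocytes, the class with the most Sema3e.

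Neuropilins were highest in vessel and stromal cells. Nrp1, the receptor of Sema3a and of vascular endothelial growth factor, had 1161 and 1101 CPM in losartan mural and mesangial cells and 1652 and 1255 CPM in untreated ones. Endothelium followed at 1124 ± 109 CPM and fibroblasts at 1083 ± 44.9 CPM (SD, n = 4 each), and the ranges of these 3 classes overlapped. Nrp2, the receptor of Sema3f and Sema3g, averaged 546 ± 56.4 CPM in fibroblasts and 544 ± 41.4 CPM in endothelium (SD, n = 4 each), which overlapped, and 52.1 CPM in podocytes. In fibroblasts Nrp2 had 570 and 561 CPM with losartan and 590 and 463 CPM untreated. Sema3a, the ligand of neuropilin 1, was highest in fibroblasts, at 64.8 and 52.0 CPM with losartan and 53.3 and 46.2 CPM untreated, and overlapped the endothelium at 50.8 ± 13.8 CPM (SD, n = 4).

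The tubule had its own ligands. Sema3c, a ligand of both neuropilins with plexin D1 and A plexins, had 187 and 227 CPM in losartan thick ascending limb and 238 and 296 CPM in untreated thick ascending limb. Proximal tubule at 200.1 ± 27.9 CPM and intercalated cells at 200.1 ± 25.9 CPM (SD, n = 4 each) overlapped it. Higher values stood outside the tested classes, in injured proximal tubule cells (352 and 801 CPM with losartan, 911 and 1008 CPM untreated) and urothelium (483 and 475 CPM with losartan, 806 and 274 CPM untreated). Sema4d, a ligand of plexin B1, had 209 and 204 CPM in losartan proximal tubule and 258 and 204 CPM in untreated proximal tubule. Sema4a, a ligand known from immune cells, had 78.4 and 66.8 CPM in losartan proximal tubule and 90.7 and 100.3 CPM in untreated proximal tubule, and its level in macrophages and dendritic cells, 73.8 ± 11.6 CPM (SD, n = 4), overlapped these. Sema4b had 177 and 215 CPM in losartan thin limb and 83.9 and 154 CPM in untreated thin limb. The thin limb cluster led by Kcnh7 and Nrip3 held 4 nuclei in the first untreated library and 255 in the second.

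The B and C plexins were spread differently. Plxnb1, the receptor of Sema4d, had 82.7 and 99.8 CPM in losartan parietal epithelium and 76.4 and 98.7 CPM in untreated parietal epithelium, close to podocytes at 83.3 ± 15.1 CPM (SD, n = 4). Plxnb2 was present in every tested class and highest in principal and connecting tubule cells, at 71.5 and 87.4 CPM with losartan and 68.5 and 149 CPM untreated. The cluster of this class led by Aqp4 and Elf5 held 9 nuclei in the first untreated library and 322 in the second, so these libraries mixed clusters differently. Plxnc1, the receptor of Sema7a, had 96.7 and 162 CPM in losartan macrophages and dendritic cells and 118 and 153 CPM in untreated ones, above fibroblasts at 42.1 CPM in every library. The other 9 genes stayed under 50 CPM in every tested class. Of these, Sema4g reached 41.4 CPM in proximal tubule, Sema3b 35.0 CPM in intercalated cells, Plxna1 33.5 CPM in fibroblasts, Sema6b 32.2 CPM and Sema5b 29.5 CPM in endothelium, Sema6c 28.1 CPM in fibroblasts and Plxna3 11.3 CPM in thin limb. Sema4f and Plxnb3 stayed under 5 CPM everywhere.

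Clusters inside a class differed too. Among intercalated cells, Plxna4 had 462, 429, 421 and 596 CPM in the cluster led by Slc26a4 and Slc4a9, genes of bicarbonate-secreting type B cells, and 18.9, 20.8, 24.96 and 9.66 CPM in the cluster led by Kit and by Slc4a1, the anion exchanger of acid-secreting type A cells (each in the order losartan 1 and 2, untreated 1 and 2). All 4 libraries of the first cluster lay above all 4 of the second. Sema3c averaged 176 CPM in the Slc26a4 cluster and 220 CPM in the Kit cluster. The genes Sema3a, Sema3c, Sema3d and Sema3e lie within 5.35 Mb of chromosome 5 (GRCm38), and each was highest in another tested class: fibroblasts, thick ascending limb, endothelium and podocytes.

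In the endothelium, a cluster led by Sox17, Bmx and Vwf, genes of arterial endothelium among others, had Sema3g at 327 and 321 CPM with losartan and 333 and 223 CPM untreated. The large endothelial cluster had Sema3g at 53.5 and 70.7 CPM with losartan and 51.2 and 57.5 CPM untreated. The order was the opposite for Nrp2, which averaged 34.5 CPM in the Sox17 cluster and 587 CPM in the large one, and for Sema3d, at 48.1 and 379 CPM. Among fibroblasts, the cluster led by Cntn1 and Smoc2 had more Sema5a (915 CPM against 231 CPM) and less Nrp1 (408 CPM against 1207 CPM) than the cluster led by Abca8a and Fbln5.

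**Figure D2:**
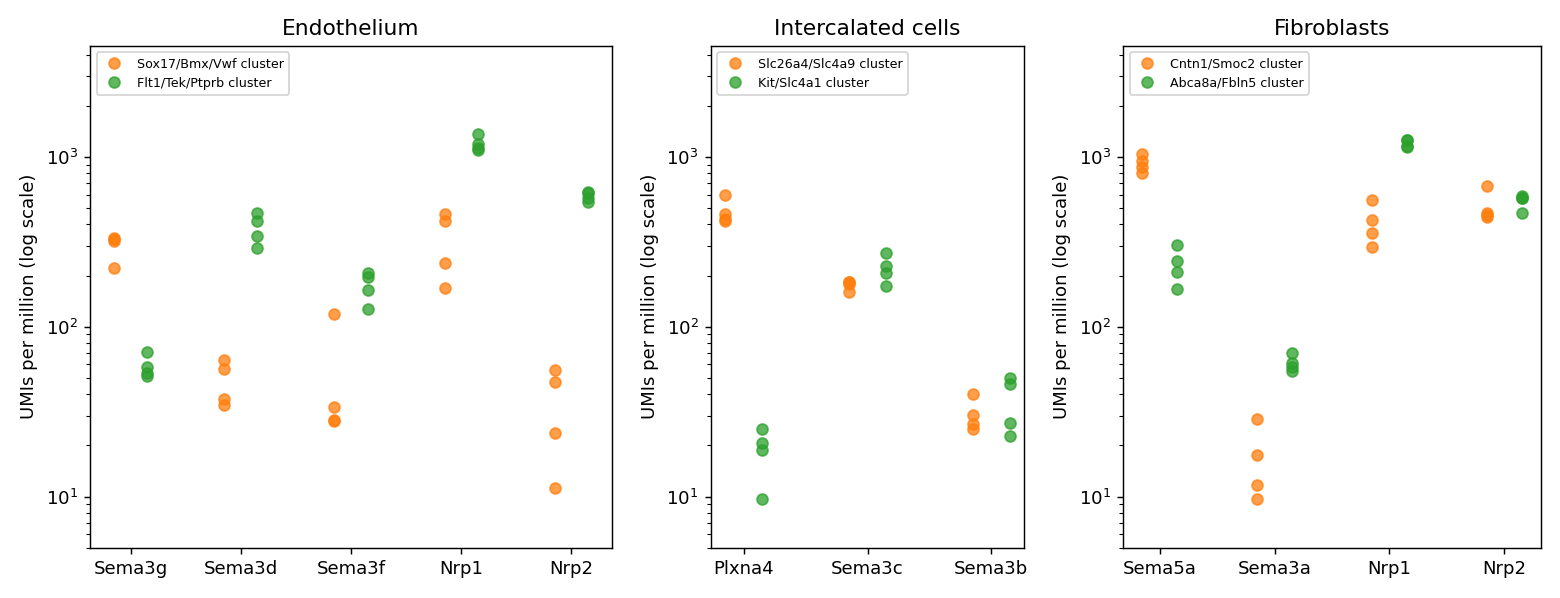
Levels (CPM, log scale) of selected genes in the clusters that make up the endothelium, the intercalated cells and the fibroblasts, with 1 point per library. Plxna4 lies at 421 CPM or more in every library of the Slc26a4 cluster and at 24.96 CPM or less in every library of the Kit cluster, and Nrp2 and Sema3g are split in opposite directions between the endothelial clusters.

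The first comparison asked whether the family changed with losartan in the kidney taken as a whole, with all kept nuclei of a library summed. None of the 29 genes with enough counts passed an adjusted p of 0.05 with edgeR's quasi-likelihood test (Benjamini-Hochberg over 18410 genes), and none of the other genes did, so the share called was 0.00%; 15 of the 29 had an unadjusted p under 0.05, where 21.9% of all genes did. DESeq2 called 7 of them, Sema3d, Sema3e, Sema3f, Sema3g, Sema4c, Sema5a and Plxnb1, all lower with losartan, and 8.91% of all genes. With edgeR, 23 of the 29 had a negative log2 change and a median of -0.33, where the median of all genes was -0.01. In 23 of the 29 the groups did not overlap, all of them lower with losartan, where 58.8% of all genes did not overlap and 44.7% were lower without overlap.

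Because endothelium and podocytes made up less of the losartan libraries, the change that composition alone would give was computed by holding each class at its mean level and letting only its share of UMIs vary. The composition value was below 0 for 25 of the 29 genes, with a median log2 of -0.38, beside a measured median of -0.48 (both without TMM scaling). For Sema3e the measured log2 was -0.97 and the composition value -0.82, and for Plxnd1 these were -0.51 and -0.47. For Sema3d they were -1.27 and -0.67, and for Sema3c -0.46 and -0.09. In a whole-kidney sum, fewer cells of a type and less RNA per cell cannot be told apart.

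**Figure D3:**
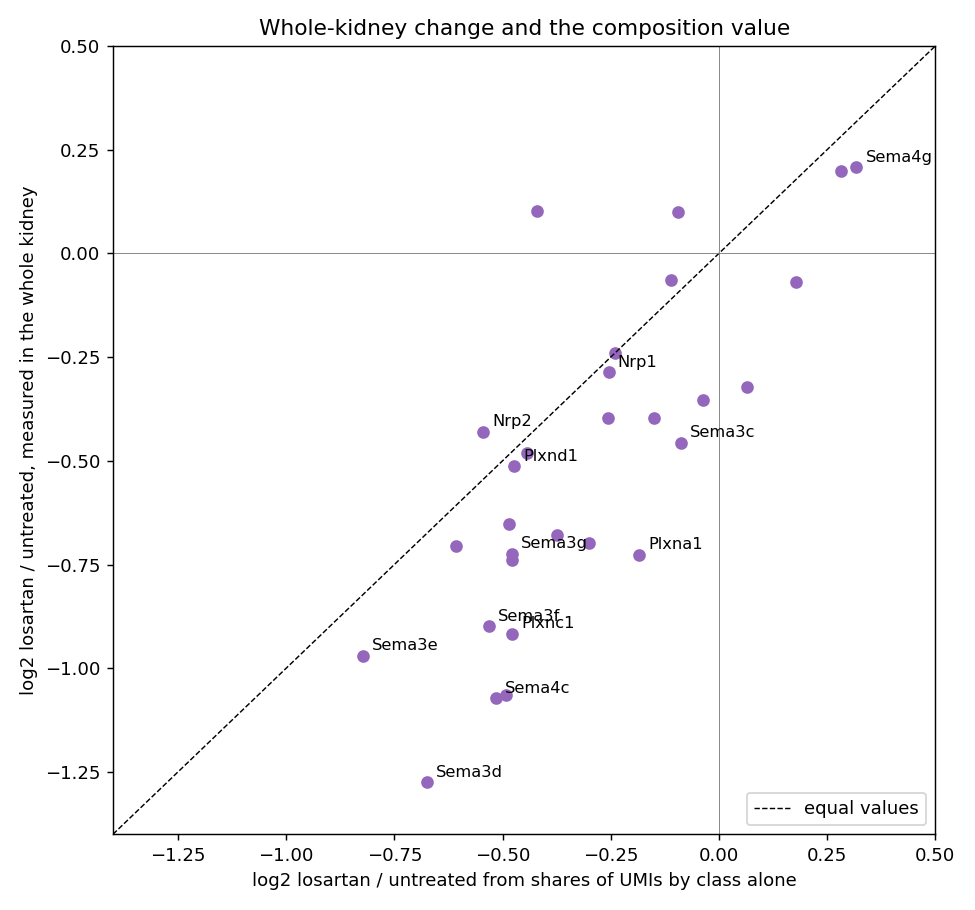
Measured log2 change (losartan over untreated) in the whole kidney against the log2 change given by class shares alone, for the 29 tested genes. Points on the dashed line have equal values: Nrp1 and Plxnd1 lie near it, while Sema3d at -1.27 measured and -0.67 by composition lies well below it.

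The second comparison asked whether the genes changed within a cell class. Of 244 gene and class pairs tested, 2 passed an adjusted p of 0.05, both lower with losartan, which is 2 of 244 beside 0.260% of all 125765 gene and class pairs. DESeq2 also called 2, Sema3c in the distal convoluted tubule and Sema3d in fibroblasts, so the tools shared 1 of their calls. It gave no adjusted p for 44 of the 244. Over the classes together DESeq2 called more genes than edgeR, among them 69 of 12076 in the distal convoluted tubule and 82 of 13006 in fibroblasts. It called fewer than edgeR in podocytes (7 against 17 of 6568), mural and mesangial cells (104 against 131 of 9101) and parietal epithelium (25 against 29 of 5573). At an unadjusted p under 0.05 there were 35 (26 lower and 9 higher), and 9.11% of all pairs reached that. The groups did not overlap in 106 of the 244 (32 higher and 74 lower with losartan), a share of 43.4%, where 39.2% of all pairs did not overlap. A change of 1 log2 unit simulated on these libraries was recovered for 28.9% of changed genes in podocytes and 44.8% in the distal convoluted tubule. A gene that passed no test is therefore not shown to be unchanged. Of all calls in these simulations, 4% in podocytes and 13.4% in the distal convoluted tubule were false.

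Sema3g fell in podocytes. It had 447 and 474 CPM in losartan podocytes and 822 and 808 CPM in untreated podocytes, a log2 change of -0.83 (SE 0.14, edgeR adjusted p = 0.027), or 0.564 times the untreated level. Both losartan libraries lay well below both untreated libraries, and 17 of 6568 genes were called in podocytes (0.259%). Of the 12 family genes tested there, 6 were lower and 1 higher without overlap, where 35.7% of all genes did not overlap and 17.7% were lower without overlap. After thinning each nucleus to 1000 UMIs, a Sema3g UMI was found in 39.3% and 37.6% of losartan podocytes and 56.9% and 44.4% of untreated podocytes, beside 0.956% and 0.631% of losartan and 0.759% and 0.472% of untreated proximal tubule nuclei. Unthinned, the podocyte shares were 72.3% and 74.4% with losartan and 85.6% and 85.6% untreated. The 95% Clopper-Pearson interval of the second untreated library, 37.1% to 52.0%, overlapped those of both losartan libraries, whose highest bound was 49.0%. That of the first untreated library began at 48.6% and overlapped that of the first losartan library only. Such intervals cover counting error only. Median depth in podocytes was 3569 and 3336 UMIs with losartan and 3260 and 4138 UMIs untreated, and in proximal tubule 4934 and 4704 UMIs with losartan and 3998 and 5626 UMIs untreated.

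The other podocyte ligands passed no test in podocytes. Sema3e had a log2 change of -0.10 (SE 0.13, adjusted p = 0.945) and Sema5a of -0.11 (SE 0.12, adjusted p = 0.916). The summed podocyte markers were at 84405 to 85726 CPM in losartan podocytes and 82881 to 83411 CPM in untreated ones. Markers of other cells in podocytes moved with the group. All 12 proximal tubule markers were detected and summed to 1646 to 2118 CPM with losartan and 609 to 1236 CPM untreated. All 9 endothelial markers summed to 382 to 521 CPM with losartan and 228 to 303 CPM untreated. The part of either set in the Sema3g result was not tested. With the nuclei richest in proximal tubule markers left out, the Sema3g log2 change was -0.85 (adjusted p = 0.020). The call was lost without the first losartan library (adjusted p = 0.358) and with DESeq2 (adjusted p = 0.079), and adjusted p ran from 2.1e-05 to 0.358 over 11 alternatives while the log2 change kept its sign.

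Sema3c fell in the distal convoluted tubule, the salt-reabsorbing segment after the loop. It had 34.1 and 43.4 CPM with losartan and 87.0 and 94.3 CPM untreated, a log2 change of -1.19 (SE 0.16, adjusted p = 0.038), or 0.437 times the untreated level. The groups did not overlap, and 34 of 12076 genes were called in this class (0.282%). After thinning, a Sema3c UMI was found in 3.002% and 4.10% of losartan nuclei and 6.97% and 7.28% of untreated nuclei of the class. Unthinned, these were 10.4% and 13.4% with losartan and 22.1% and 24.5% untreated, at median depths of 3717 and 3580 UMIs with losartan and 3314 and 4328 UMIs untreated. In podocytes, the class with the least Sema3c, thinned shares were 1.79% and 1.60% with losartan and 4.58% and 3.89% untreated. These shares rested on 2 nuclei in each losartan library and 7 in each untreated library, and their Clopper-Pearson intervals overlapped between the groups. Without thinning, the podocyte shares were 6.25% and 4.8% with losartan and 5.88% and 11.7% untreated, so the groups overlapped. So few nuclei cannot decide whether Sema3c was lower with losartan in podocytes.

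Sema3c was high in injured proximal tubule cells, and these made up 0.155% and 0.907% of losartan nuclei and 2.33% and 3.73% of untreated nuclei. Inside the distal convoluted tubule, all 8 injury markers were detected and summed to 201 to 240 CPM with losartan and 733 to 1128 CPM untreated, and the part of this in the Sema3c result was not tested. In the thick ascending limb, the tested class with the highest level, the log2 change was -0.32 (SE 0.15, adjusted p = 0.538). The call in the distal convoluted tubule was lost without the first losartan library (adjusted p = 0.841), without the second (adjusted p = 0.203) and with no filter on low counts (adjusted p = 0.067). Adjusted p ran from 7.3e-05 to 0.841 over 11 alternatives, with the log2 change between -1.38 and -1.02.

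**Figure D4:**
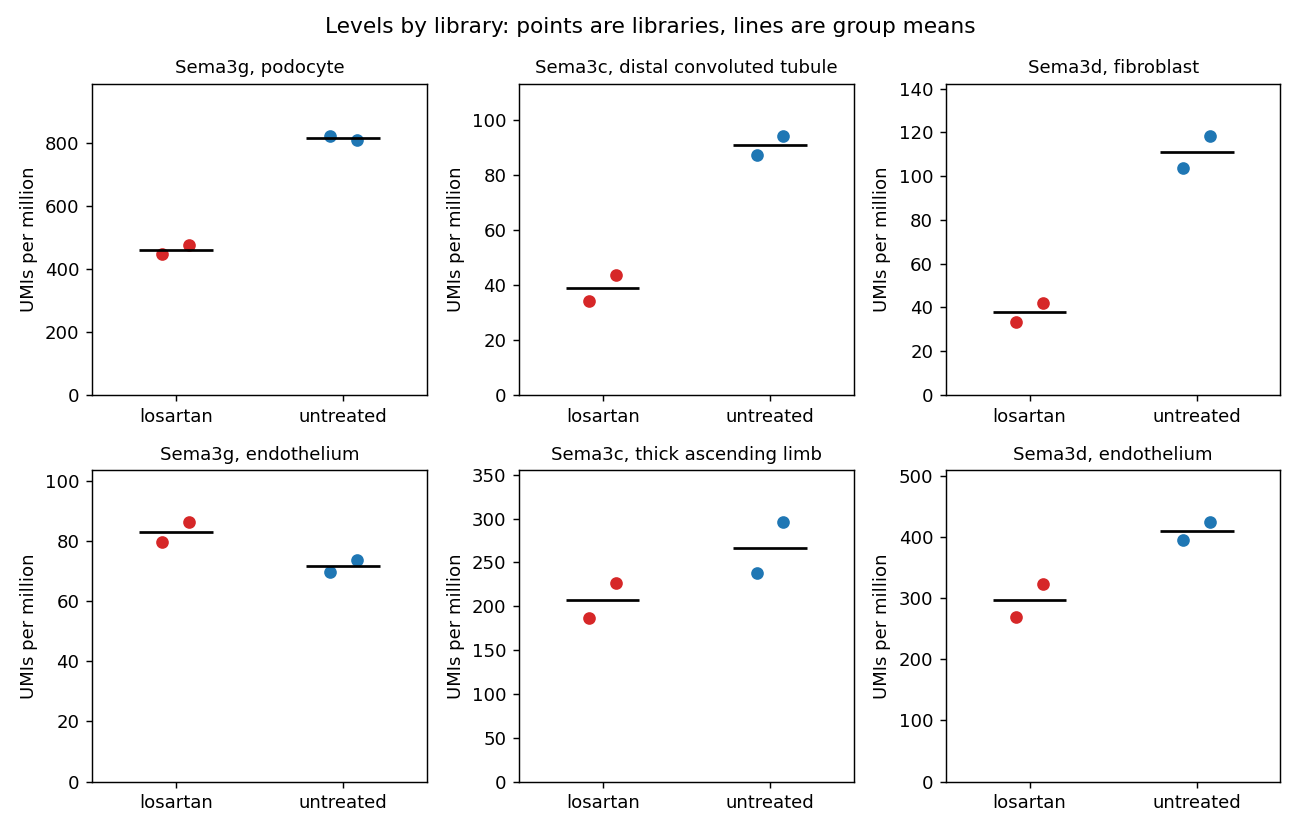
Levels (CPM) of Sema3g, Sema3c and Sema3d in a pair of classes each, with 1 point per library, losartan left and untreated right, and lines at the group means. The losartan points lie below the untreated points for Sema3g in podocytes, Sema3c in the distal convoluted tubule and Sema3d in fibroblasts, and Sema3g in endothelium shows no such gap.

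The third comparison asked whether losartan changed a gene differently in the pair of tested classes where it was highest, by the interaction of class and treatment. Of 28 genes tested, 1 passed an adjusted p of 0.05, beside 0.168% of all genes over the 17 fits. At an unadjusted p under 0.05 there were 13, but the share of all genes at that level was not counted. The 13 are therefore not read as a result about the family. Sema3d was lower with losartan in both of its classes and by more in fibroblasts. It had 33.6 and 41.9 CPM in losartan fibroblasts and 103.7 and 118.6 CPM in untreated fibroblasts, with a log2 change of -1.53 (SE 0.17, adjusted p = 0.087), and -0.44 (SE 0.14, adjusted p = 0.790) in endothelium, neither called alone with edgeR. In fibroblasts edgeR called 0 of 27 family genes and 0.0231% of all genes. At an unadjusted p under 0.05 there were 3 of the 27, beside 1115 of all 13006 genes. DESeq2 called 1 of the 27, Sema3d (adjusted p = 2.6e-05), beside 82 of all 13006 genes. With all 4 libraries kept, edgeR called Sema3d with no filter on low counts and with the replicate number as a block. Calls over all genes in fibroblasts also rose there, to 584 of 19922 and 231 of 13006. Over 11 alternatives the Sema3d log2 change ran from -1.71 to -1.41. The effect in endothelium minus that in fibroblasts was 1.13 (SE 0.18, edgeR adjusted p = 0.014; 26 of 13127 genes, 0.198%, were called in that fit).

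Both fibroblast clusters had less Sema3d in the losartan libraries: 34.2 and 42.9 CPM with losartan and 98.1 and 127 CPM untreated in the large cluster, and 28.7 and 34.8 CPM with losartan and 129 and 83.1 CPM untreated in the Cntn1 cluster. All 9 endothelial markers were detected in fibroblasts and summed to 519 to 535 CPM with losartan and 389 to 552 CPM untreated, so their ranges overlapped. All 12 proximal tubule markers were detected there too and summed to 1618 to 2359 CPM with losartan and 753 to 1276 CPM untreated, without overlap. Without the nuclei richest in these, the difference between the classes was 1.23 (adjusted p = 0.033). The difference between the classes passed no threshold without the first losartan library (adjusted p = 0.066), without the second (adjusted p = 0.114) or with DESeq2 (adjusted p = 0.195). Adjusted p ran from 2.3e-05 to 0.195 over 11 alternatives, and the difference from 1.09 to 1.23.

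Sema3g had the next smallest p among these differences. Its effect in podocytes minus that in endothelium was -1.04 (SE 0.22, adjusted p = 0.082), in a fit that called 0.0387% of genes, and it was called in 5 of 11 alternatives (adjusted p from 0.0023 to 0.9998). In endothelium it had 79.6 and 86.2 CPM with losartan and 69.5 and 73.8 CPM untreated. In mural and mesangial cells it had 60.9 and 88.3 CPM with losartan and 41.4 and 19.2 CPM untreated, with a log2 change of 1.34 (SE 0.38, adjusted p = 0.113). That change was called in 5 of 10 alternatives, with adjusted p from 0.00017 to 0.283 and the log2 change from 0.82 to 2.59. Sema4d in the same cells had a log2 change of 1.25 (SE 0.31, adjusted p = 0.083), and it was called in 5 of 10 alternatives, with adjusted p from 0.0062 to 0.239 and the log2 change from 1.02 to 1.80. All 12 proximal tubule markers were detected in mural and mesangial cells and summed to 5449 to 5859 CPM with losartan and 1973 to 3382 CPM untreated, and all 9 endothelial markers to 1881 to 2573 CPM with losartan and 979 to 1472 CPM untreated. The class's own 10 markers summed to 3625 to 4156 CPM with losartan and 4371 to 5019 CPM untreated. Without the nuclei richest in proximal tubule markers, the log2 change was 1.26 for Sema3g (edgeR adjusted p = 0.124) and 1.80 for Sema4d (edgeR adjusted p = 0.046). The part of either of these marker sets was not tested. None of the 22 family genes tested in mural and mesangial cells passed with edgeR, where 1.44% of all genes were called. At an unadjusted p under 0.05 there were 5 of the 22, beside 1468 of all 9101 genes. None of the 19 tested in intercalated cells passed, where 0.715% of all genes were called. The unadjusted level was reached by 2 of the 19, beside 1069 of all 10070 genes. DESeq2 called none of these family genes either, but gave no adjusted p for 14 of the 22 and 5 of the 19. Among alternatives that kept all 4 libraries, 2 family genes were called in mural and mesangial cells with the replicate number as a block (410 of all 9101 genes). With no filter on low counts 2 were called (651 of 17675 genes), and without the highest doublet scores 2 (371 of 7419 genes). Without the nuclei richest in proximal tubule markers 1 was called (335 of 8535 genes). None was called in intercalated cells in these alternatives.

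No receptor passed edgeR's test in any class (0 of 94 gene and class pairs), where 0.260% of all pairs were called. At so low a share, 0 of 94 is not a result about receptors. At an unadjusted p under 0.05 there were 18 of the 94, where 9.11% of all pairs reached that. DESeq2 called none of the 94, 11 of which had no adjusted p. With all 4 libraries kept, 1 receptor pair was called with no filter on low counts and 1 with the replicate number as a block. Calls over all genes also rose in both settings, as given below. Fits with a library left out have 1 library in a group, so their receptor calls are not counted here. The counts of alternatives given for single genes include such fits. In endothelium Plxna2 had a log2 change of 0.19 (SE 0.12, adjusted p = 0.999), Plxna4 of 0.27 (SE 0.13, adjusted p = 0.990) and Plxnd1 of -0.21 (SE 0.13, adjusted p = 0.999). Nrp1 had -0.39 in mural and mesangial cells (SE 0.18, adjusted p = 0.322, called in 1 of 11 alternatives), and Nrp2 had 0.11 in fibroblasts (SE 0.15, adjusted p = 0.913). Among ligands of the endothelium, Sema4c had -0.92 (SE 0.23, adjusted p = 0.742), and 1 of 11419 genes was called in that class (0.00876%). With all 4 libraries kept, Sema4c was called, lower with losartan, with no filter on low counts and with the replicate number as a block. Calls over all genes in endothelium also rose there, to 179 of 19220 and 180 of 11419. With a library left out, the Sema4c log2 change ran from -1.30 to -0.67.

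The genes around the family were counted on 4 lists: co-receptors and other partners, plexin and neuropilin effectors, growth factors that bind neuropilins, and the other guidance families. In the whole kidney, 0 of 25, 0 of 52, 0 of 8 and 0 of 41 tested genes passed with edgeR, where 0 of all 18410 genes did. An unadjusted p under 0.05 was reached by 12, 12, 4 and 13 of them, and by 21.9% of all genes. Their medians were -0.36, -0.20, -0.46 and -0.32 log2, where that of all genes was -0.01. Over the tested classes 4 of 1036 gene and class pairs on the lists were called, or 0.386%, beside 0.260% of all pairs. An unadjusted p under 0.05 was reached by 157 of the 1036, or 15.2%, beside 9.11% of all pairs. Of the 4 calls, 1 was for a gene that binds neuropilins. Vegfc, a growth factor of lymphatic vessels that binds neuropilin 2, fell in the thick ascending limb to 6.22 and 7.03 CPM with losartan, against 23.8 and 29.7 CPM untreated (log2 -1.95, SE 0.24, adjusted p = 0.028), where 0.302% of genes were called. The call was lost without the first losartan library (adjusted p = 0.309), without the second (adjusted p = 0.193) and with no filter on low counts (adjusted p = 0.193), and adjusted p ran from 6.0e-11 to 0.309 over 11 alternatives. All 8 injury markers in the thick ascending limb summed to 255 to 311 CPM with losartan and 684 to 965 CPM untreated.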

How the data were processed

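The authors deposited raw UMI counts per gene and nucleus, made with Cell Ranger 5.0.0 per the file headers; the submitters' processing notes also name mm10 and Bowtie 0.12.2, with no role. Whether intronic reads were counted is not given in the sources used here. Nuclei needed 500 UMIs, 300 genes and at most 10% mitochondrial UMIs (510 removed). Scrublet doublets were removed (3171), at its own threshold in the first untreated library and at a fixed share of 0.8% per 1000 barcodes in the other 3, where its threshold had not worked. Nuclei were clustered with scanpy 1.11.5 (3000 variable genes without the 31, 30 components, resolution 1) into 37 clusters, of which 29 were named.

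The naming rules were adjusted after the clusters were seen: only sets with 3 detected markers could name a cluster, lymphatic endothelium was joined to endothelium, and clusters with high doublet scores and depth stayed unnamed. That last rule left out 2.53% and 0.992% of losartan nuclei and 0.431% and 0.266% of untreated nuclei, and unnamed nuclei were 13.8% and 10.6% of losartan and 5.98% and 3.52% of untreated nuclei.

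Counts were summed per class and library and tested with edgeR 4.0.16 (TMM, filterByExpr, quasi-likelihood, Benjamini-Hochberg over all genes of a fit) in R 4.3.3, with DESeq2 1.42.0 as an alternative; levels are CPM without TMM. Simulated data with known changes were used to test the fits. The limit first set on false calls (15% of calls) was exceeded in thin limb (20%) and was then dropped. In classes with a call named here, false shares of simulated calls were 13.4% in the distal convoluted tubule and 11.5% in intercalated cells. They were 5.79% in mural and mesangial cells, 4.29% in the thick ascending limb and 4% in podocytes. An exact permutation test of 2 against 2 libraries cannot go below p = 0.333. Members and lists were chosen with earlier results of these data known. Named with every library were genes called in any fit and those at 50 CPM or more in a tested class; the genes nearest the threshold were added after their values were seen. Of the 31 genes, 6 overlap an antisense gene in the tables (Nrp2, Sema6d, Sema3e, Plxna4, Plxna1 and Plxnb1), so their counts are uncertain if strand was not used.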

Additional observations from a re-analysis of the deposited data

Results flagged for a closer look

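The losartan effect on Sema3d differed between its pair of highest classes by a test of the difference itself: the log2 change in endothelium minus that in fibroblasts was 1.13. No other result for these genes was singled out by a difference between classes, and groups of 2 libraries are too small to test for a library far from the others.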

How the results depend on the processing

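Settings were changed one at a time. Genes called over the classes, 327, became 933 with DESeq2, 2655 with no filter on low counts, 2031 with the replicate block, 525 without the highest doublet scores, and 337 to 5809 when 1 library was left out (lowest without the first losartan library, highest without the first untreated one). Family calls, 2, became 8 with no filter, 7 with the replicate block, 4 without the highest doublet scores and 1 to 23 with a library left out (highest without the first untreated one). Whole-kidney family calls, 0 of 29, became 7 with DESeq2 and 8 with the replicate block, where 1640 and 2263 of all 18410 genes were called. Genes whose effect differed between classes, 1, became 0 with DESeq2, 2 with no filter, 6 with the replicate block, 2 without nuclei rich in proximal tubule markers, and 0 to 4 with a library left out.

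Log2 changes were examined for 26 gene and class pairs under 284 values: 248 kept direction and side of the threshold, 23 passed it newly, 5 no longer passed it and 8 changed sign. The sign changes came in 5 uncalled genes. With a library left out, the log2 change ran from -0.065 to 0.32 for Nrp2 in fibroblasts, from -0.13 to 0.27 for Plxnb1 in parietal epithelium, from -0.87 to 0.26 for Plxnb2 in principal cells, from -0.49 to 0.24 for Plxnc1 in macrophages and from -0.21 to 0.13 for Sema4d in proximal tubule. Without the highest doublet scores Plxnb1 had -0.012. The 22 levels kept within 1 SD when a library was left out, but a mean of 4 values cannot move further, so this tests nothing. The cause of these shifts was not tested. The labels give same-numbered libraries nothing in common but the number. Their deviations correlated at 0.35 in the whole kidney and 0.05 to 0.37 by class. Adipocyte nuclei were in both second libraries (46 losartan, 65 untreated) and in neither first library. Whether same-numbered libraries share a further factor was not tested. The 1000 UMI minimum removed 0 nuclei, so it tests nothing and is left out of every count of alternatives. Depth limits small changes: 6.00% of 1 log2 unit changes were recovered in macrophages and dendritic cells, and up to 20% of simulated calls were false, in thin limb.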

Other observations

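The remaining calls on the surrounding lists were in other guidance families. Srgap1, a GTPase-activating protein downstream of the Slit receptor Robo, fell in the distal convoluted tubule, with 64.8 and 77.5 CPM in losartan libraries and 183 and 182 CPM in untreated libraries (log2 -1.33, SE 0.12, edgeR adjusted p = 0.0054). That call was lost without the first losartan library (adjusted p = 0.311) and without the second (adjusted p = 0.101), and adjusted p ran from 8.7e-08 to 0.311 over 11 alternatives. Srgap1 also fell in intercalated cells, with 58.2 and 41.6 CPM with losartan and 147 and 137 CPM untreated (log2 -1.46, SE 0.20, edgeR adjusted p = 0.032). That call was lost without the first losartan library (adjusted p = 0.188) and without the highest doublet scores (adjusted p = 0.103), and adjusted p ran from 1.8e-08 to 0.188 over 11 alternatives. All 12 proximal tubule markers in intercalated cells summed to 3147 to 3857 CPM with losartan and 735 to 1354 CPM untreated; without the nuclei richest in them, the log2 change was -1.36 (adjusted p = 0.039). Epha6, an ephrin receptor, rose in mural and mesangial cells, with 229 and 189 CPM with losartan and 16.1 and 45.8 CPM untreated (log2 2.61, SE 0.34, edgeR adjusted p = 0.013). Epha6 was called in all 11 alternatives (adjusted p from 5.5e-17 to 0.018), with a log2 change of 5.15 without the highest doublet scores and 2.17 to 3.66 with a library left out. Intercalated cells had 0.715% and mural and mesangial cells 1.44% of all genes called.

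Injured proximal tubule cells, too few to test, had Sema6a at 166 and 282 CPM with losartan and 329 and 265 CPM untreated.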
